A study of Mus musculus with 2 samples.

Results

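The aminoacyl-tRNA synthetases are the enzymes that attach each amino acid to its transfer RNA. They were taken as every gene whose symbol in the array's platform annotation has the form used for this family (an amino acid letter followed by ars, with the endings for its mitochondrial or second forms, plus Farsa, Farsb and Eprs). The rule found 35 genes of 22180 named on the array, carried by 36 of 23521 probe sets with 1 gene symbol. Of these genes, 19 were counted as cytosolic and 16 as mitochondrial. Kars and Gars, whose enzymes supply both compartments, were counted as cytosolic. Dars was not analysed here, and Aars shared its only probe set with Exosc6, so its value was not assigned to either gene.

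Mouse bone marrow-derived dendritic cells were compared after culture with medium conditioned by topotecan-treated E0771 cells and after control culture. E0771 is a mouse mammary tumour line, and topotecan inhibits topoisomerase I. Each condition was 1 array, so no value has a replicate error and no test is possible. The labels name no mouse strain, culture time or dose and do not describe the control medium, so the effect of topotecan cannot be told apart from that of tumour-conditioned medium in general.

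Transfer RNAs are charged in the cytosol by a set of enzymes and in mitochondria mostly by another, and the genes of both sets lie in the nucleus. In the cytosol several synthetases are bound together in the multisynthetase complex, held by scaffold proteins, while others act freely. Many cytosolic synthetase genes are known targets of ATF4, the transcription factor induced by amino acid shortage and other stresses, and Wars is known in human cells as a gene induced by interferon gamma.

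Values are log2 intensities, and every difference is conditioned medium minus control. The 2 arrays held 41345 probe sets, with medians of 4.09 with conditioned medium and 4.10 in the control. A gene was kept if at least 1 of its values reached 4.10, the median of all values, which left 13712 genes and all 35 synthetases. The number of arrays limits the precision. The only technical scale available was the spread between probe sets of the same gene, whose differences had a pooled SD of 0.46 over 652 genes (787 degrees of freedom). This SD is for 1 difference, and a gap between 2 differences has a larger spread. It leaves out the variation between cultures.

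The labelled cell type was checked against marker genes. The integrin gene Itgax had 7.15 with conditioned medium and 8.18 in the control, and the class II gene H2-Aa had 10.94 and 9.06 in that order, whereas Zbtb46, a transcription factor gene of classical dendritic cells, lay under the filter level on both arrays (3.65 with conditioned medium and 3.65 in the control). Flt3, another dendritic cell gene, had 3.15 with conditioned medium and 4.38 in the control. Cd86, a costimulator gene, was 17.0-fold and Csf2rb, a cytokine receptor gene, 2.82-fold higher, and H2-Eb1, another class II gene, was 2.57-fold higher. The list of dendritic cell and leukocyte markers held 12 genes, of which 10 were kept. Of these 10, 5 were at least 2-fold higher (where 8.63% of all genes kept were) and 2 at least 2-fold lower (where 6.84% were). A total of 6 had differences above 0 and 4 below 0, where 54.0% of all genes kept were below 0. Ptprc (-0.77) and Ccr7 (-0.31) were among the 4 below 0. Lymphocyte markers were at or near the filter level on both arrays, at 3.05 to 4.87 with conditioned medium and 3.32 to 4.32 in the control over 7 genes. Of 7 mammary epithelial markers, Epcam, Krt14, Krt18 and Cldn4 lay under the filter level on both arrays, whereas Cdh1 had 10.21 with conditioned medium and 6.42 in the control, and Krt19 had 6.59 and 4.44 in that order. Krt8 had 4.77 with conditioned medium and 4.96 in the control. The summed intensity of the 7 epithelial markers was 1349 with conditioned medium and 189 in the control, and most of it was Cdh1 alone (1183 with conditioned medium and 85.6 in the control). Without Cdh1 the sum was 166 with conditioned medium and 104 in the control, and the part of such cells in the results below was not tested. Ifnb1, the gene of interferon beta, had 10.73 with conditioned medium and 2.19 in the control. The 8 measured interferon reference genes were all at least 2-fold higher, where 8.63% of all genes kept were, with the chemokine gene Cxcl10 at 69.5-fold.

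Most synthetases were slightly lower with conditioned medium, and a small number of cytosolic ones stood apart on the higher side. Of the 35 genes, 32 (91.4%) had a difference below 0, where 54.0% of all genes kept did, and 3 (8.57%) had one above 0, where 44.2% did. The median difference was -0.50 (quartiles -0.75 and -0.30), beside -0.07 (quartiles -0.45 and 0.36) over all genes kept. Few of these differences were large. Wars and Kars were at least 2-fold higher (2 of 35, 5.71%, where 8.63% of all genes kept were), and Farsb, Fars2, Rars2 and Cars2 were at least 2-fold lower (4 of 35, 11.4%, where 6.84% of all genes kept were). The shares past 2-fold were thus near those of genes in general, and most of the lower values were modest. A total of 17 synthetases (48.6%) were at least 1.5-fold lower, where 17.9% of all genes kept were. A total of 20 were lower by at least the SD between probe sets (57.1%, where 24.5% of all genes kept were), and 3 were higher by as much (8.57%, where 20.5% of all genes kept were). At 3-fold, Wars was the 1 gene higher (2.86%, where 4.14% of all genes kept were) and Cars2 the 1 gene lower (2.86%, where 2.11% were). Single members with smaller differences are within that technical spread, and with 1 array a condition the common direction has no replicate check.

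**Figure D1:**
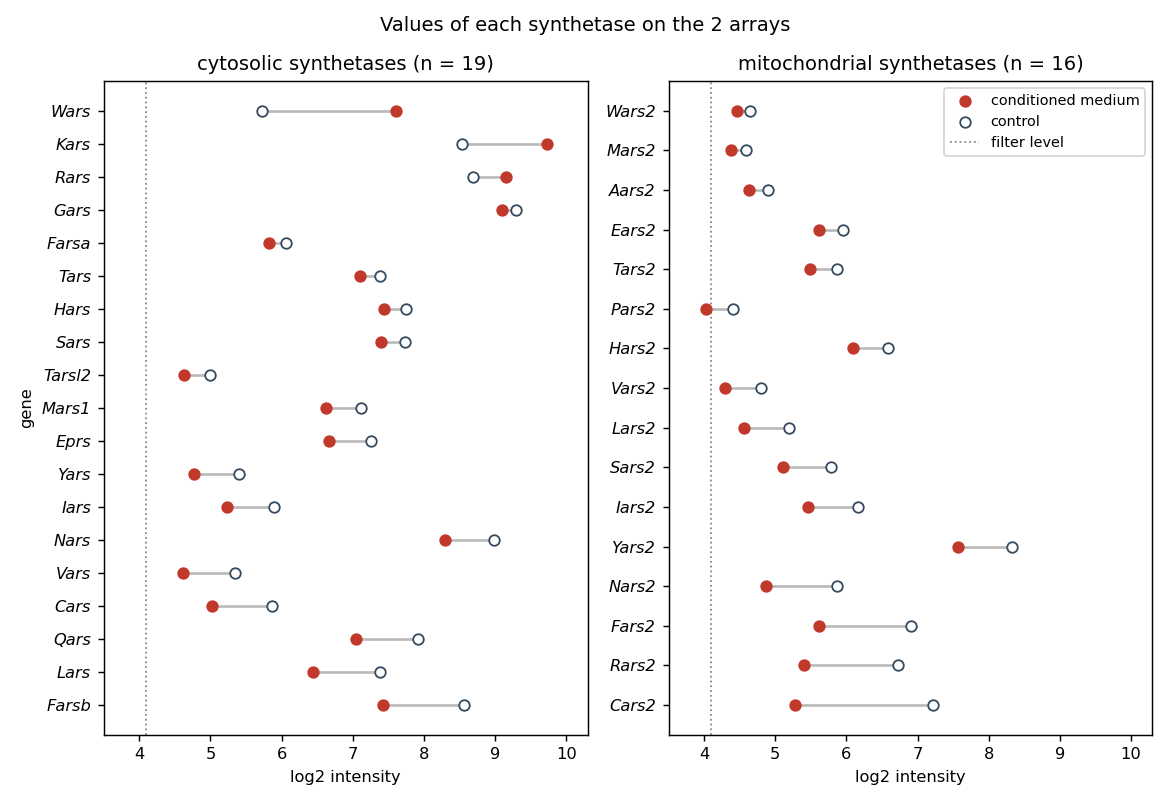
Log2 intensity of each synthetase with conditioned medium (filled points) and in the control (open points), cytosolic genes on the left and mitochondrial genes on the right, each sorted by difference. The filled point lies right of the open one in Wars, Kars and Rars and left of it in the other 32 genes, and the dotted line marks the filter level of 4.10.

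**Figure D2:**
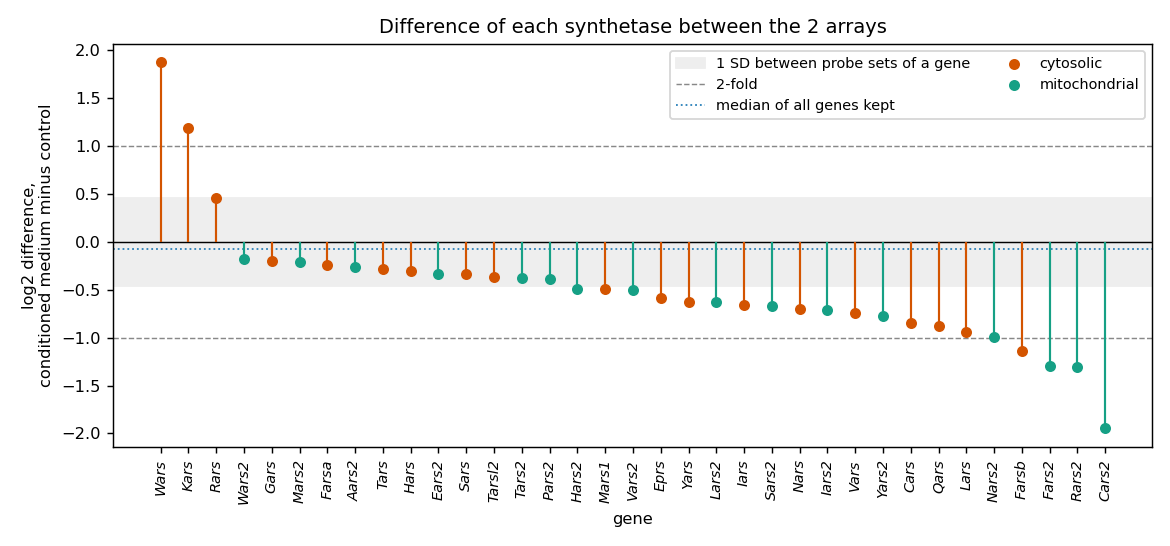
Log2 difference (conditioned medium minus control) of the 35 synthetases in descending order, coloured by compartment. The grey band is 1 SD between probe sets of a gene (0.46), dashed lines mark 2-fold, and the dotted line is the median of all genes kept (-0.07); Wars is highest at 1.88 and Cars2 lowest at -1.95.

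Wars, which encodes cytosolic tryptophanyl-tRNA synthetase, had the highest difference of the family. Its log2 intensity was 7.60 with conditioned medium and 5.73 in the control, a difference of 1.88 (3.67-fold higher). Only 431 of the 13712 genes kept had a larger difference. On the same arrays Ido1, the gene of an enzyme that breaks down tryptophan, had 8.73 with conditioned medium and 3.19 in the control, 24.8-fold higher when the control is set to the filter level. Irf1, a transcription factor gene induced by interferons, had 8.66 with conditioned medium and 6.53 in the control (4.37-fold higher). The mitochondrial counterpart Wars2 had 4.46 with conditioned medium and 4.64 in the control, a difference of -0.18, which was within the SD between probe sets.

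Kars, which encodes lysyl-tRNA synthetase and supplies both compartments from 1 gene, had 9.73 with conditioned medium and 8.54 in the control, a difference of 1.19 (2.28-fold higher). A total of 924 genes kept had a larger difference. Rars, the cytosolic arginyl-tRNA synthetase, had 9.16 with conditioned medium and 8.69 in the control. Its difference of 0.46 was only as large as the SD between probe sets. Kars and Rars are members of the multisynthetase complex. The other complex members measured had log2 differences of -0.94 (Lars, leucine), -0.87 (Qars, glutamine), -0.65 (Iars, isoleucine), -0.59 (Eprs, which joins the glutamate and proline enzymes in 1 protein) and -0.49 (Mars1, methionine). The complex held members in both directions, with 5 of 7 below 0 (71.4%, where 54.0% of all genes kept were) and a median difference of -0.59. With 7 genes, that share is not far from the one over all genes.

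Of the scaffold proteins of the complex, Aimp1 had 9.36 with conditioned medium and 10.14 in the control (difference -0.78), and Eef1e1 had 7.40 with conditioned medium and 7.27 in the control (0.13). Aimp2 was not analysed here. The scaffolds thus did not share the higher values of Kars.

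Among cytosolic synthetases outside the complex, 11 of 12 had differences below 0 (54.0% of all genes kept), with a median of -0.35, and Wars was the exception. The lowest was Farsb, the beta subunit of phenylalanyl-tRNA synthetase, with 7.43 on the conditioned-medium array and 8.57 on the control array (2.20-fold lower). Its partner Farsa, the alpha subunit of the same enzyme, had 5.82 with conditioned medium and 6.06 in the control, a difference of -0.24. The 2 subunits of this enzyme, which are needed in equal numbers, therefore differed by unequal amounts. The gap between them (0.90 on the log2 scale) was larger than the SD between probe sets. That SD is for 1 difference, and a gap between 2 has a larger spread.

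Cars (cysteine, -0.84), Vars (valine, -0.74), Nars (asparagine, -0.70) and Yars (tyrosine, -0.63) were lower by more than the SD between probe sets. Tarsl2 (a second threonyl-tRNA synthetase, -0.37), Sars (serine, -0.34), Hars (histidine, -0.31), Tars (threonine, -0.28) and Gars (glycine, -0.20) lay within it. Gars, like Kars, supplies both compartments, and it had 9.10 with conditioned medium and 9.30 in the control.

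All 16 genes counted as mitochondrial had lower values with conditioned medium, with a median difference of -0.57 (range -1.95 to -0.18). Of the cytosolic genes 16 of 19 (84.2%) were lower, and of all genes kept 54.0% were. Kars and Gars, which supply both compartments, are not among these 16 and had differences of 1.19 and -0.20. Cars2, which charges mitochondrial transfer RNA with cysteine, had 5.28 with conditioned medium and 7.22 in the control (3.85-fold lower). It was the lowest of the family, and 167 genes kept had a lower difference. Rars2 (arginine) had 5.41 with conditioned medium and 6.72 in the control (2.48-fold lower).

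Fars2 (phenylalanine) had 5.62 with conditioned medium and 6.91 in the control (2.45-fold lower). Nars2 (asparagine) had 4.87 with conditioned medium and 5.86 in the control, a difference of -0.99. Its second probe set held 4.50 on both arrays, as 1 of 1722 probe sets with identical values on both, and the 2 probe sets of this gene thus disagreed. Nars2 was the only synthetase with more than 1 probe set.

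Yars2 (tyrosine, -0.77), Iars2 (isoleucine, -0.71), Sars2 (serine, -0.67), Lars2 (leucine, -0.63), Vars2 (valine, -0.50) and Hars2 (histidine, -0.49) were lower by more than the SD between probe sets. Pars2 (proline, -0.39), Tars2 (threonine, -0.38), Ears2 (glutamate, -0.33), Aars2 (alanine, -0.26) and Mars2 (methionine, -0.21) lay within it, as did Wars2. Pars2 was the only synthetase with a value under the filter level, 4.02 with conditioned medium, against 4.41 in the control.

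Probe sets differ in how strongly they bind their target, so levels were not ranked between genes: cytosolic synthetases spanned 4.61 to 9.73 with conditioned medium and 5.0 to 9.30 in the control, and mitochondrial ones 4.02 to 7.56 with conditioned medium and 4.41 to 8.33 in the control.

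The medians of the cytosolic (-0.49) and the mitochondrial genes (-0.57) differed by 0.07 on the log2 scale. This gap was 0.33 over the synthetases that passed a filter at the 75th percentile and -0.021 without Gars and Kars, so no order of the compartments is given. At the ends of the range, the 3 genes above 0 were counted as cytosolic and 3 of the 4 genes at least 2-fold lower were mitochondrial. Of the 3 above 0, Kars supplies both compartments. In the 11 amino acids with 1 measured enzyme gene for each compartment, both genes were lower in 9, and the mitochondrial gene had the lower difference in 8. Since 32 of the 35 synthetases (91.4%) were lower, most pairs would have both genes lower without any link within a pair. In 8 of the 11 the 2 differences lay within the SD between probe sets of each other. The other 3 were tryptophan, with 1.88 for Wars and -0.18 for Wars2, arginine, with 0.46 for Rars and -1.31 for Rars2, and cysteine, with -0.84 for Cars and -1.95 for Cars2.

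**Figure D3:**
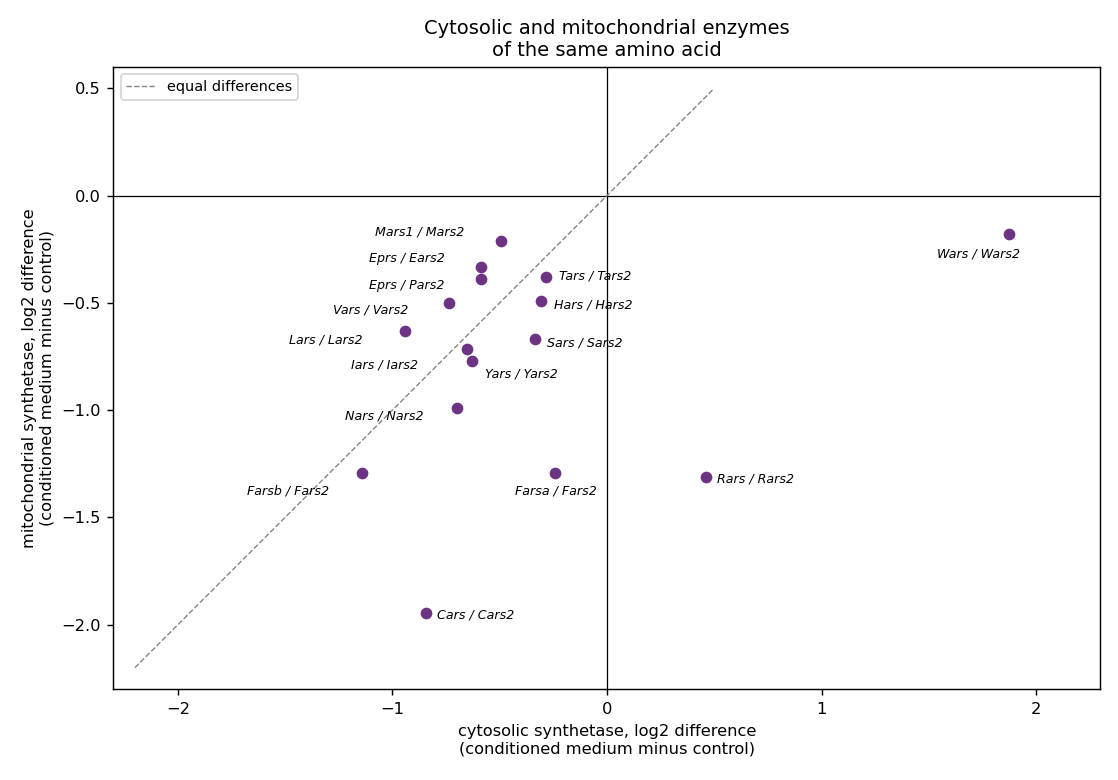
Log2 difference (conditioned medium minus control) of the cytosolic synthetase (x axis) against the mitochondrial synthetase (y axis) of the same amino acid, 1 point a pair, with Farsa and Farsb both set against Fars2, Eprs against Ears2 and Pars2, and Tars (not Tarsl2) against Tars2. Wars / Wars2 and Rars / Rars2 lie right of 0 on the x axis, all points lie below 0 on the y axis, and the dashed line marks equal differences.

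Synthetases are divided into class I and class II by the fold of their catalytic domain. Class I genes had a median difference of -0.64 with 16 of 18 below 0, and class II genes a median of -0.38 with 15 of 16 below 0 (54.0% of all genes kept). Wars and Rars are class I and Kars is class II, so the higher members came from both. Eprs, which joins an enzyme of each class, was counted in neither.

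Hars and Hars2 are neighbouring genes in the RefSeq gene table of mouse assembly GRCm38.p6. Hars had 7.44 with conditioned medium and 7.75 in the control, and Hars2 had 6.10 with conditioned medium and 6.59 in the control, so both were modestly lower. Mars1 has Ddit3, a stress-induced transcription factor gene, as its neighbour in the same table. Mars1 had 6.62 with conditioned medium and 7.11 in the control, whereas Ddit3 had 9.97 with conditioned medium and 8.29 in the control (3.21-fold higher), so these neighbours had opposite differences. The neighbour of Mars1 on its other side, Arhgap9, was lower, with a difference of -0.72. Opposite differences were not particular to Mars1, since Gars (-0.20) also had a higher neighbour, Ggct (1.66).

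The synthetases known as ATF4 targets were not higher as a group. Of 12 measured, 11 had differences below 0 (where 54.0% of all genes kept did) and the median was -0.61, and Wars was the 1 gene above 0. The other ATF4-linked genes were mixed. Of 25 kept genes of the amino acid stress response outside the family, 7 were at least 2-fold higher (where 8.63% of all genes kept were) and Pck2 alone was that much lower (where 6.84% were), with a median difference of 0.11. The highest were Nupr1, a stress-induced nuclear protein gene (2.47), Slc3a2, the heavy chain of several amino acid transporters (1.96), and Ddit3 (1.68). Sesn2, also among the 7, had 4.41 with conditioned medium and 3.29 in the control. It was only 1.24-fold higher when the control is set to the filter level.

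Trib3, a pseudokinase gene induced by ATF4, had 6.11 with conditioned medium and 4.98 in the control (2.19-fold higher). Atf4 itself had 9.98 with conditioned medium and 10.36 in the control (-0.38), Asns, the asparagine synthetase gene, 7.56 with conditioned medium and 7.43 in the control (0.13), and Chac1, a glutathione-degrading enzyme gene, 4.85 with conditioned medium and 4.61 in the control (0.24). Pck2, a mitochondrial enzyme gene of this group, was 3.0-fold lower (5.54 with conditioned medium and 7.12 in the control). Thus Ddit3, Trib3, Slc3a2 and Nupr1 were higher on the array on which most ATF4-linked synthetases were lower.

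Promoter sequences from RefSeq (GRCm38.p6, 250 bases before to 50 after the annotated start) matched 26 of the 35 synthetases and were searched on both strands for 3 motifs. These were the amino acid response element bound by ATF4 with C/EBP proteins (TGATGNAAN), the interferon-stimulated response element (GAAA, any 2 bases, GAAA) and the E-box bound by MYC and related factors (CACGTG). No 2 different motifs overlapped in these windows. The ATF4 motif was in 4 of the 26 synthetase promoters, in 4 of the 7 on the ATF4 list and in 4.50% of the 27025 genes in the promoter table. The 4 genes were Gars, Iars, Tars and Yars, whose differences were -0.20, -0.65, -0.28 and -0.63, and none of the 14 mitochondrial synthetase promoters held it.

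The same motif was in the promoters of 8 of 23 amino acid stress genes outside the family, whose differences ran from -1.58 to 2.47. Of these 8, 3 were at least 2-fold higher (where 8.63% of all genes kept were) and 1 was at least 2-fold lower (where 6.84% were). Genes with the motif therefore lay on both sides of 0. The interferon-stimulated motif was in 1 synthetase promoter, that of Qars (3.99% of all genes in the table), and the E-box in those of Ears2, Farsb, Iars and Tars (8.09%). A match is a string of letters and not a site shown to be used.

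The 4 promoters with the ATF4 motif are printed with the motif in capitals on the gene's strand (a motif on the other strand appears reversed and complemented). The differences of these 4 genes were below 0, as were those of 32 of the 35 synthetases, so the shared side does not set them apart. Those of Gars and Tars lay within the SD between probe sets. In Gars it begins 31 and in Tars 16 bases before the start, and in Iars and Yars it lies just after it. The windows are chr6:55037751-55038050, plus strand for Gars, chr13:49681880-49682179, plus strand for Iars, chr15:11399609-11399908, minus strand for Tars and chr4:129189653-129189952, plus strand for Yars.
Gars: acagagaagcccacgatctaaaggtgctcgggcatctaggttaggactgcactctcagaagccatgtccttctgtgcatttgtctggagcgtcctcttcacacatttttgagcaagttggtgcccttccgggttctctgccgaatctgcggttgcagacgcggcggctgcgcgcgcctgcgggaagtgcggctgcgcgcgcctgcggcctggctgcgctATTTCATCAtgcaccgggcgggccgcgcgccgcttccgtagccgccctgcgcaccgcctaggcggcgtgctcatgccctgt
Iars: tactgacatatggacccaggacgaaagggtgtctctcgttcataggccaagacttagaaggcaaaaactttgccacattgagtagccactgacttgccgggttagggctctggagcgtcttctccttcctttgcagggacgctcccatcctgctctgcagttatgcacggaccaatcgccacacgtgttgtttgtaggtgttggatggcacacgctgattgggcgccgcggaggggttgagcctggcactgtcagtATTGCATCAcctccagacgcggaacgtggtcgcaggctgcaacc
Tars: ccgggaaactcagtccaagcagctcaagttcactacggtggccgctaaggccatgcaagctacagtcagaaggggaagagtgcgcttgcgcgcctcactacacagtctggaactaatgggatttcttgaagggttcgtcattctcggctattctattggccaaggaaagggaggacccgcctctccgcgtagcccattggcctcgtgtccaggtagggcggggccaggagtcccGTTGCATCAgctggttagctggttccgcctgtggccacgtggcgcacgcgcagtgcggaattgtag
Yars: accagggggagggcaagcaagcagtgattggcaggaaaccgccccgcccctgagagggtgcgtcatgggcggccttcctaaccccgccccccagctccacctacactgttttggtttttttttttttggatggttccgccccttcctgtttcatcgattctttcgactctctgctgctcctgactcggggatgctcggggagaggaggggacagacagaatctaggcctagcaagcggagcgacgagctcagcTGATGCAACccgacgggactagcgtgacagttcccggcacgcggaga

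The promoter of Qars is printed because it was the 1 synthetase found with the interferon-stimulated motif, which begins 199 bases before the start and is in capitals (chr9:108507755-108508054, plus strand). Qars, with 7.04 on the conditioned-medium array and 7.92 on the control array, was 1.83-fold lower.
Qars: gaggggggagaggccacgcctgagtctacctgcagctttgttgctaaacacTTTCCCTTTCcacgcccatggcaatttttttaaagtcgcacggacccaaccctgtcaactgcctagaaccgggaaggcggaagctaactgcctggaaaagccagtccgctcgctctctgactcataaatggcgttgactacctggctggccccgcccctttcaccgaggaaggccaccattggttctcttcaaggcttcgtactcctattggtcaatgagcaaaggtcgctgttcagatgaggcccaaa

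Other genes of transfer RNA charging were described from lists drawn up for this comparison. Of 9 accessory genes kept, 6 had differences below 0 (66.7%, close to the 54.0% of all genes kept), with a median of -0.32, and 2 were at least 2-fold higher, where 8.63% of all genes kept were. Ppa1, the cytosolic pyrophosphatase that removes the pyrophosphate released by charging, had 8.84 with conditioned medium and 7.14 in the control (3.24-fold higher). Dtd2, which removes wrongly attached amino acids from transfer RNA, had 7.42 with conditioned medium and 6.35 in the control (2.10-fold higher). Xpot, the export receptor for transfer RNA, had 5.30 with conditioned medium and 5.54 in the control, a difference of -0.24. Its difference was within the SD between probe sets.

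In mitochondria glutaminyl-tRNA is made indirectly, by Ears2 and then by an amidotransferase of 3 subunits. Its catalytic subunit gene Qrsl1 had 4.42 with conditioned medium and 5.66 in the control (2.37-fold lower). Gatb had 4.16 with conditioned medium and 5.33 in the control (2.25-fold lower), and Gatc 5.64 with conditioned medium and 6.30 in the control (1.59-fold lower). All 3 subunits were thus lower, with differences further below 0 than that of Ears2 (-0.33). For Gatc (-0.66) the gap to Ears2 was smaller than the SD between probe sets. Gatb lay near the filter level with conditioned medium.

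Of the 14 partner genes of mitochondrial charging and translation, 11 had differences below 0 (where 54.0% of all genes kept did), with a median of -0.45, and 3 were at least 2-fold lower: Qrsl1, Gatb and Mrrf, the ribosome recycling factor gene (5.34 with conditioned medium and 6.46 in the control). The 6 cytosolic elongation factor genes had a median of -0.31 with 0 past 2-fold, where 8.63% of all genes kept were higher and 6.84% lower. Of the 6 elongation factor genes, 5 were below 0, where 54.0% of all genes kept were. The medians of both lists lay on the same side of 0 as that of the synthetases.

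**Figure D4:**
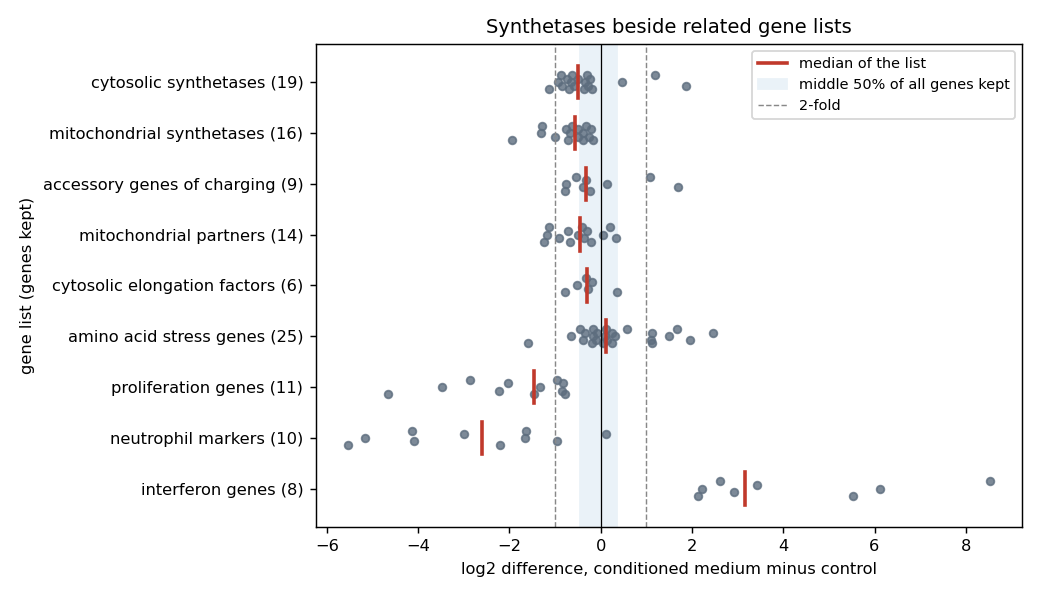
Log2 difference (conditioned medium minus control) of the kept genes of each list, 1 point a gene, with the list's median as a red bar and the middle 50% of all genes kept as a pale band (-0.45 to 0.36). Both synthetase lists have medians near -0.5 (-0.49 and -0.57), the proliferation genes (-1.47) and neutrophil markers (-2.60) lie further left, and the interferon genes (3.16) lie right.

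Markers of proliferation and of neutrophils were lower on the same array. All 11 proliferation genes measured were below 0 (where 54.0% of all genes kept were) and 7 were at least 2-fold lower (where 6.84% were), with a median of -1.47 and a summed intensity of 2093 with conditioned medium and 5827 in the control. The lowest were Ccnb2 (25.2-fold), Birc5 (11.1-fold) and Top2a (7.28-fold). Of 10 neutrophil markers, 9 were below 0 and 8 at least 2-fold lower (against the same 54.0% and 6.84% of all genes kept), with a median of -2.60 and a summed intensity of 2969 with conditioned medium and 10774 in the control. The lowest were Camp (22.1-fold, with its conditioned-medium value raised to the filter level), Ngp (35.9-fold) and Ctsg (17.5-fold). Camp, Elane and Mpo lay under the filter level with conditioned medium. In RNA of whole cultures fewer cells of a type and less RNA per cell cannot be told apart, and the part of either group of cells in the lower synthetase values was not tested.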

How the data were processed

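Total RNA of 2 cultures was measured on biotin-labelled Affymetrix arrays, 1 array a condition, per the labels' protocols. Affymetrix Expression Console is the tool named, per the submitters' processing notes, and its version, algorithm and genome build were not given in the sources used. The authors deposited 1 log2 value per probe set, read as log2 intensity from the range (-0.26 to 13.50); the log base is an inference. The 2 distributions were nearly equal, so a shift common to most genes would not be seen.

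Symbols came from the platform annotation: 23521 probe sets had 1 symbol, 1814 several (not named) and 16010 none. A gene was represented by its probe set with the highest mean, and kept when its higher value reached 4.10. All synthetases were named, and of other lists Atf4, Ddit3, Asns, Trib3, Chac1, Aimp1, Eef1e1, Xpot, Qrsl1, Ifnb1, Irf1 and Ido1 plus members at least 2-fold apart, up to 3 a direction. Other named list genes were chosen after their values were seen. No test was run, since each group had 1 array; counts use 2-fold. The members and lists were chosen with earlier results of these data known. The counting and the pooled SD were tested on simulated data. Promoters came from RefSeq (GRCm38.p6). The work used pandas 2.3.3, numpy 2.4.6, statsmodels 0.14.6 and matplotlib 3.10.9 in Python 3.11.15.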

Additional observations from a re-analysis of the deposited data

How the results depend on the processing

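No paired analysis was possible because each group had 1 array, and no replicate could be left out for the same reason. Other settings tried were centring on kept genes, a loess curve (fraction 0.3, 3 iterations) subtracted, quantile normalization, averaging a gene's probe sets, other filters (none, the 75th percentile, the mean over arrays), values under 4.10 raised to it, 1.5-fold and 3-fold thresholds, and lists without Gars and Kars or without Tarsl2. Under the settings that recompute single genes, all 35 synthetases stayed on their side of 0. Centring (by -0.07) and the loess curve (-0.11 to -0.05 at the synthetases' levels) could not have changed this. The difference nearest 0 was -0.18 (Wars2), and the filters leave differences as they are. The median difference of all synthetases ran from -0.62 to -0.43, and was -0.62 with the filter at the 75th percentile, which left 26 of the 35 genes. With that filter the mitochondrial median was -0.74 and the cytosolic minus mitochondrial median 0.33. The cytosolic median was -0.39 with the loess curve subtracted. Without Gars and Kars the cytosolic minus mitochondrial median turned to -0.021, so the order of the compartments is not settled. At 1.5-fold 17 genes were lower, and at 3-fold 1 was higher and 1 lower. Nars2 differed by -0.50 over the mean of its probe sets, 1 of which held identical values on both arrays. Its difference was -1.01 under quantile normalization, which made 5 genes 2-fold lower. Medians were taken as moved past 0.1, single genes past 0.46.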
